A study of Mus musculus with 12 samples.

Results

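Sox2, Fabp7, Nes and Pax6 are genes by which neural progenitors are commonly recognised, and their signals were followed here in sorted cells of the Myf5 lineage of the mouse head and trunk. The members were all probe sets that the platform annotation assigns to these genes alone, which came to 10 of the 20380 single-gene probe sets and 4 of the 12393 genes on the array, an Affymetrix mouse expression array. All 4 genes were among the 7722 tested. Embryos were of the ICR strain and of the genotype Myf5Cre;RosaYFP in every group. Labelled cells of the head, and separately of the trunk, were collected at E9.5, at E10.5 and at E11.5, where E stands for the embryonic day, so that 12 arrays fell into 6 groups of 2. No group lacks the Cre or the reporter, so every comparison is between labelled cells. Cre is driven by Myf5, the first muscle determination gene to be switched on in the embryo. Recombination of the reporter is permanent, so a cell whose ancestors once made Cre stays fluorescent whatever it transcribes later. The labels call the cells muscle progenitors and leave it unsaid if replicate arrays came from separate animals, litters or pools.

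In the developing brain and spinal cord, dividing progenitors line the ventricle and give rise to neurons and glia. SOX2, a SoxB1 high-mobility-group factor, keeps these cells in the progenitor state, and PAX6, a paired-box homeodomain factor, patterns them and acts in the eye as well. FABP7, the brain lipid-binding protein, is a fatty acid carrier of radial glia, and NES (nestin) is an intermediate filament of progenitors. None of the 4 is exclusive to neural tissue: SOX2 is made in foregut and pharyngeal endoderm and in sensory placodes, FABP7 in glial precursors of peripheral nerves, and nestin in myoblasts and young muscle fibres.

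The promoters of Sox2 and Fabp7 are shown because these genes had the largest changes with stage and opposite courses in the trunk. Each window runs from 250 bases before the transcription start to 50 after it, on the plus strand of GRCm38.p6, from RefSeq, at chr3:34649745-34650044 for Sox2 and chr10:57784673-57784972 for Fabp7. Capitals mark matches, on either strand, to the SOX core letters ACAAAG and ACAATG, to TGGGAA (the letters read by RBPJ, the Notch pathway's DNA-binding factor) and to the E-box CANNTG (the letters of basic helix-loop-helix factors).
Sox2: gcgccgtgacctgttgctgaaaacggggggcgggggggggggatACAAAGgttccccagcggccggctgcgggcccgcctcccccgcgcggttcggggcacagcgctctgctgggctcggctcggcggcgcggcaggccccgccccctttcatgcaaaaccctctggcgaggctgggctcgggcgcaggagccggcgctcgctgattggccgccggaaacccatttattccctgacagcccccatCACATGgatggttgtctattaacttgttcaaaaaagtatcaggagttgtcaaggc
Fabp7: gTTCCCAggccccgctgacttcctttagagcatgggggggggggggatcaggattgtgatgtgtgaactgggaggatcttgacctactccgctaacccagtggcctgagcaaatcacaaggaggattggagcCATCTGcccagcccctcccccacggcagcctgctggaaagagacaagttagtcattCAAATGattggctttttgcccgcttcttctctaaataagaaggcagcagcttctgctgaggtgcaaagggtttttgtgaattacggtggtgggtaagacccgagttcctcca
The Sox2 window held 1 ACAAAG, 206 bases before the start, and 1 E-box at 5 bases before it. The Fabp7 window held 1 TGGGAA on the minus strand, 249 bases before the start, and 2 E-boxes, at 118 and 62 bases before it. The Nes window held no match, and of the 2 Pax6 windows 1 held an ACAAAG and an E-box. Such letters are common: of 32851 mouse promoter windows, 18.7% held ACAAAG, 12.6% ACAATG, 25.6% TGGGAA and 72.3% an E-box. A match is a run of letters and not a measured binding site.

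The arrays were closely alike in scale, with median signals of 108.6 to 110.4 intensity units. Between replicate arrays Pearson r over the probe sets lay between 0.948 in head at E10.5 and 0.966 in trunk at that stage, which is a correlation across genes and not across independent replicates. The p-values below measure only the spread between these samples, which may be technical. At E10.5, replicate 1 stood apart in each region by its signal for Xist, the RNA of the inactive X chromosome: 163.2 units in head and 82.62 in trunk, against 3790 to 8801 on the other 10 arrays, so results that rest on these arrays are also given without both of them. Myf5, the gene behind the label, was above the array median on all 12 arrays. It had 524.8 and 770.8 units in head at E9.5, 2294 and 2120 at E10.5 and 1787 and 1772 at E11.5, and between 999.1 and 1305 in trunk. Signals below an array's median, about 109 units, are called dim here.

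Whether the 4 genes mark a neural progenitor state in these cells was set against the other members of that state. Sox2 and the tested probe set of Nes were above the median on all 12 arrays, Fabp7 on 11 and Pax6 on 2. Sox1 and Sox3, which encode the other SoxB1 factors and accompany Sox2 in the neural tube, were dim on all 12 arrays, with highest signals of 19.65 and 52.68 units. Other progenitor genes were not dim. Of a wider list, 36 genes were on the array and 25 were tested, 3 of these dim on 10 or more arrays. Hes5, among the 25, was dim on 1 array and reached 1755 units. All 4 genes exceeded the median together on 1 array, trunk E9.5 replicate 2. They are called by name below.

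**Figure D1:**
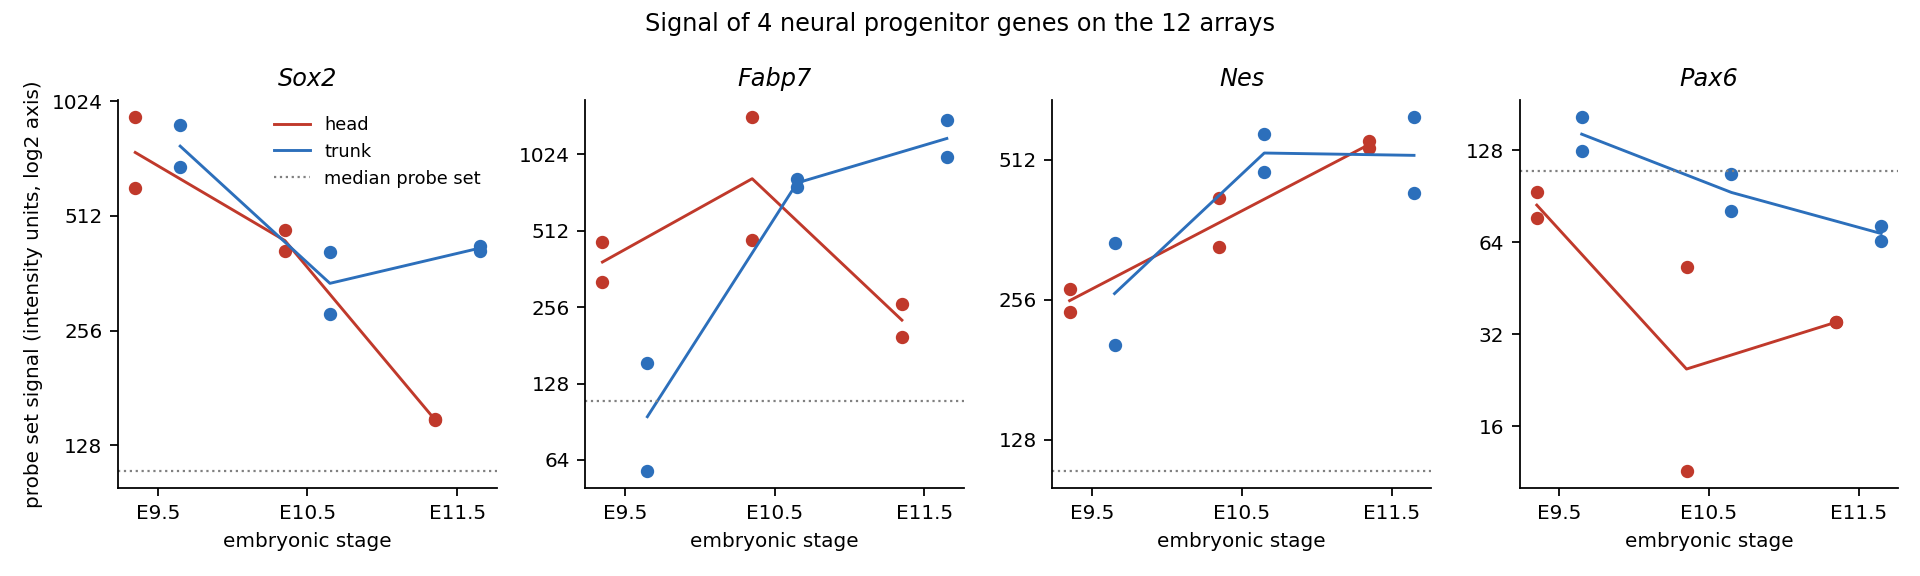
Signal of each gene's tested probe set (log2 axis, intensity units) on every array, by stage, head left of trunk within a stage; points are single arrays, lines join the group means of log2 signal, and the dotted line is the median probe set. Sox2 in head at E11.5 lies at 149.1 and 150, under all other arrays, and Fabp7 in trunk lies at 1397 and 1004 at E11.5, above its earlier arrays.

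Sox2 fell with stage in both regions, and at E11.5 it was lower in head than in trunk. In head it had 607.9 and 929.0 units at E9.5, 413.6 and 470.1 at E10.5, and 149.1 and 150 at E11.5. In trunk it had 885.5 and 688.5 units at E9.5, 282.1 and 411.2 at E10.5, and 415.1 and 427.7 at E11.5. The 3 stages did not overlap within head, and in trunk the drop lay between E9.5 and E10.5, with the E11.5 arrays just above those at E10.5.

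In head the fall over both days was 5.02-fold (log2 −2.33 ± 0.25, SE from limma, n = 2 arrays per group; adjusted p = 0.00038). Most of it came in the second day, at 2.95-fold (log2 −1.56 ± 0.25, adjusted p = 0.0187), while the first day's −0.77 on the log2 scale did not pass the test (adjusted p = 0.183). In trunk the fall over the first day was 2.29-fold (log2 −1.20 ± 0.25, adjusted p = 0.0153), and over both days 1.85-fold (log2 −0.89 ± 0.25, adjusted p = 0.0361). The second day in trunk gave log2 0.31 (adjusted p = 0.799). In a sorted population, fewer cells that carry a transcript and less of it per cell cannot be told apart.

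At E11.5 Sox2 was 2.82-fold lower in head than in trunk (log2 −1.49 ± 0.25, adjusted p = 0.0102), with no overlap between the arrays. At E9.5 the regions overlapped (log2 −0.06, adjusted p = 0.966), and at E10.5 head was the higher by a log2 value of 0.37 that did not pass (adjusted p = 0.389). The change over both days differed between head and trunk by log2 −1.44 ± 0.36, which also missed the threshold (adjusted p = 0.0832). Over the second day alone the difference between the changes was log2 −1.87 ± 0.36 (unadjusted p = 0.000219, adjusted p = 0.407). In order of mean level, trunk and head at E9.5 came first and overlapped, followed by head at E10.5 and trunk at E11.5, which overlapped, then trunk at E10.5, which lay below trunk at E11.5 by less than the test detected, and head at E11.5 last.

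The 5.02-fold fall in head was called under each of the 25 alternatives run. The E11.5 difference between regions was not called when any 1 of the 4 E11.5 arrays was left out (adjusted p from 0.0617 to 0.0771, log2 from −1.52 to −1.47). Without both E10.5 replicate 1 arrays the second-day fall in head was log2 −1.65 (adjusted p = 0.155) and the first-day fall in trunk log2 −0.93 (adjusted p = 0.219), while the other calls for Sox2 held. The first-day fall in trunk was also lost without trunk E9.5 replicate 1 (log2 −1.02, adjusted p = 0.161), the second-day fall in head without either head E11.5 array (adjusted p = 0.065 and 0.103), and the fall over both days in trunk when any 1 of the 4 arrays compared was left out (adjusted p from 0.0531 to 0.247).

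Markers of epithelium, a tissue in which Sox2 is also used, fell over the same interval. Of the 12 tested genes of an epithelial list, 9 fell in head from E9.5 to E11.5 and 6 in trunk, with list medians of log2 −1.92 and −1.32, against 0.00 and −0.01 over all genes, of which 4.78% and 13.4% were called in either direction. Their summed signal lay at 7770 to 8518 units in head at E9.5, 3126 to 4090 at E10.5 and 1996 to 2039 at E11.5. In trunk it lay at 2666 to 3083, then 1210 to 1858, then 1042 to 1447 units. Epcam, an epithelial adhesion molecule, fell in head and in trunk (log2 −2.20 and −0.90, adjusted p = 0.000111 and 0.0115). None of the 12 genes was listed at 0. Krt19, among the 6 in trunk, had 129.7 and 88.98 units there at E9.5, with 1 array dim, and dim signals of 24.02 and 13.23 at E11.5, so no fold is read from it. Without head E9.5 replicate 1 the count of genes that fell in head was 4, and without trunk E9.5 replicate 1 that in trunk was 2. Between the regions the list took another course than Sox2. Of the 12 genes, 7 were called higher in head at E9.5 and 5 at E10.5, and none lower, beside 5.92% and 4.52% of all genes called. These counts between regions were not repeated under the alternatives, nor that at E10.5 without both E10.5 replicate 1 arrays. The list medians for head minus trunk were log2 1.37 at E9.5, 1.17 at E10.5 and 0.84 at E11.5. Sox2 was called at neither E9.5 nor E10.5. It was lower in head at E11.5, where none of the 12 was called. The part of epithelial cells in the Sox2 values was not tested.

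Fabp7 rose in trunk and took another course in head. In head it had 322.5 and 461.6 units at E9.5, 471.2 and 1434 at E10.5, and 264.6 and 196.0 at E11.5. In trunk it had 58.06 and 154.7 units at E9.5, 819.8 and 763.8 at E10.5, and 1397 and 1004 at E11.5. The head arrays were highest at E10.5, where the replicates lay 3.04-fold apart, and lowest at E11.5, whereas the trunk stages did not overlap and were higher at each later stage.

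The rise in trunk was at least 6.11-fold over the first day (log2 3.06 ± 0.50, adjusted p = 0.00362) and at least 9.14-fold over both days (log2 3.64 ± 0.50, adjusted p = 0.000633). These are lower bounds, because 1 of the trunk arrays at E9.5 was dim and was raised to its array's median for the fold. They rest on that array: without it, trunk E9.5 replicate 1, the rises were 5.12-fold (log2 2.36, adjusted p = 0.0441) and 7.66-fold (log2 2.94, adjusted p = 0.00719), below the bounds, and with any 1 array left out the value over both days lay between log2 2.94 and 4.35. The second day in trunk added log2 0.58, which did not pass (adjusted p = 0.812). No step in head passed: the first day gave log2 1.09, the second −1.85 and both days −0.76 (adjusted p = 0.319, 0.0991 and 0.485). The change over both days differed between head and trunk by log2 −4.41 ± 0.71 (adjusted p = 0.00899), and this call held under all 25 alternatives, at log2 −3.95 with dim signals raised to the median.

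The order of the regions was reversed between E9.5 and E11.5. At E9.5 Fabp7 was at least 2.98-fold higher in head than in trunk (log2 2.03 ± 0.50, adjusted p = 0.0325). At E10.5 the arrays overlapped (log2 0.06, adjusted p = 0.959). At E11.5 it was 5.20-fold lower in head (log2 −2.38 ± 0.50, adjusted p = 0.0328), and the mean over the 3 stages gave log2 −0.10 (adjusted p = 0.867). In order of mean level, trunk at E11.5, head at E10.5 and trunk at E10.5 led, with head at E10.5 spanning both trunk groups. Head at E9.5, head at E11.5 and trunk at E9.5 followed without overlap, though the 2 head groups did not differ by the test.

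The difference at E9.5 was 2.49-fold (log2 1.32) without trunk E9.5 replicate 1 (adjusted p = 0.285), log2 1.57 with dim signals raised to the median (adjusted p = 0.092), and was not called without either head E9.5 array (adjusted p = 0.0744 and 0.179) or either trunk E10.5 array (0.0537 and 0.0534). That at E11.5 was not called when any 1 of the 4 E11.5 arrays (adjusted p from 0.0868 to 0.202) or of the trunk E10.5 arrays (0.0584 and 0.0589) was left out. Without trunk E10.5 replicate 1 the first-day rise in trunk was log2 3.01 (adjusted p = 0.0516), and without both E10.5 replicate 1 arrays it was the same value with adjusted p = 0.0349.

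Transcripts of differentiating neurons moved with Fabp7 in trunk. Of 19 tested genes of a neuronal list, 17 were called higher in trunk at E10.5 than at E9.5, and 15 at E11.5 than at E9.5. Over both days the list's median was log2 1.72, against −0.01 over all genes. Of all genes, 7.2% and 13.4% were called in either direction. Mapt, among the 17 and the 15, was dim on every trunk array at E9.5 and E10.5, so no first-day rise is read from it. At E11.5 it had 106.2 and 134 units in trunk, with 1 array dim, so no fold over both days is given. In head, where the changes of Fabp7 did not pass the test, 3 of the 19 genes rose and 1 fell over both days (4.78% of all genes called), with a list median of log2 0.79. The neuronal counts over both days were not repeated under the alternatives. The summed signal of the list was 18140 to 24180 units in head at E9.5, 30450 to 31250 at E10.5 and 27560 to 37000 at E11.5. In trunk it was 10060 to 10960 units at E9.5, 21110 to 22260 at E10.5 and 23430 to 27020 at E11.5. Most of the sum in trunk at E9.5 came from 3 genes. Sox4 had 6260 and 6317 units there, Sox11 1494 and 1975, and Ebf3 1156 and 1012. The sums thus follow the brightest genes more than the list as a whole. Dcx, which encodes a microtubule-binding protein of migrating neurons, had 1552 and 2025 units in trunk at E11.5, against 51.15 and 85.02 at E9.5.

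At E9.5, 14 of the 19 neuronal genes were higher in head, as Fabp7 was, with a list median of log2 1.91, against −0.01 over all genes, of which 5.92% were called. At E11.5, 1 of them was higher in head and none lower (2.07% of all genes called), while Fabp7 was lower in head. The 1 gene was Neurod1, and the count was 0 without head E11.5 replicate 2, either trunk E11.5 array or both E10.5 replicate 1 arrays. Neurod1, a basic helix-loop-helix factor of early neurons, had 2287 and 2822 units in head at E9.5, against 74.17 and 120.5 in trunk. At E11.5 it had 501.6 and 827.7 units in head, against 268.1 and 219.9 in trunk. The E9.5 count was 7 without head E9.5 replicate 2 or without trunk E9.5 replicate 1, and the first-day count in trunk was 6 or 7 without trunk E9.5 replicate 1 or either trunk E10.5 array, 6 without both E10.5 replicate 1 arrays and 7 with dim signals raised to the median. No tested gene of the list was listed at 0, and the part of neurons in the Fabp7 values was not tested. Of 8 tested genes of neural crest and Schwann cell precursors, the glial precursors of peripheral nerve, 2 rose in head over both days and 2 in trunk, beside 4.78% and 13.4% of all genes called, while the list medians were log2 −0.40 and −0.25. The count in head was 1 without head E9.5 replicate 1 or head E11.5 replicate 2, and that in trunk was 1 when any 1 of the 6 trunk arrays, or both E10.5 replicate 1 arrays, were left out. The list's sums lay at 2253 to 5209 units over the head arrays and 1966 to 3180 over the trunk arrays. The 2 genes that rose were Erbb3 and Ngfr in each region, and Erbb3 alone had 3171 and 3669 units in head at E11.5. Sox10 was dim on 10 of the 12 arrays, and Foxd3 and Ednrb were too dim to be tested.

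**Figure D2:**
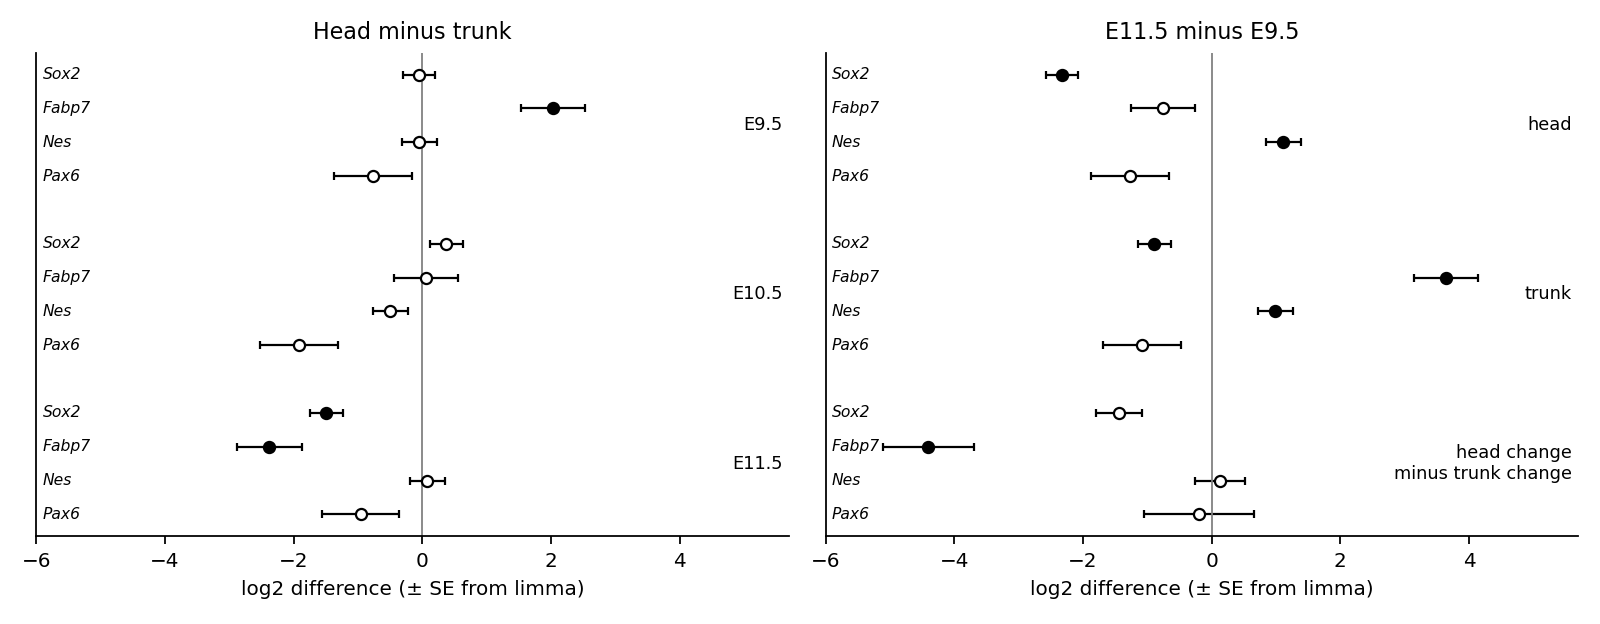
Log2 differences from limma for the 4 genes: head minus trunk at each stage, and E11.5 minus E9.5 in head, in trunk and as the head change minus the trunk change; bars are standard errors and filled points passed an adjusted p of 0.05. Fabp7 stands above 0 at E9.5 and below 0 at E11.5, and Sox2 lies below 0 over both days in both regions.

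Nes rose with stage in both regions and did not pass between them. Its tested probe set had 269.6 and 240.5 units in head at E9.5, 423.3 and 331.7 at E10.5 and 562.1 and 541.7 at E11.5. In trunk it had 204.8 and 339.6 units at E9.5, 481.3 and 581.3 at E10.5 and 631.0 and 433.3 at E11.5. The later arrays lay above those at E9.5 in each region, and the trunk arrays at E10.5 and E11.5 overlapped.

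Over both days the rise was 2.17-fold in head (log2 1.12 ± 0.27, adjusted p = 0.0358) and 1.98-fold in trunk (log2 0.99 ± 0.27, adjusted p = 0.0313). In trunk the first day carried it, at 2.01-fold (log2 1.004 ± 0.27, adjusted p = 0.0448), and the second gave log2 −0.02 (adjusted p = 0.993). The difference between the 2 rises was log2 0.13 ± 0.38 (adjusted p = 0.951), and head against trunk gave log2 −0.05, −0.50 and 0.08 at the 3 stages (adjusted p = 0.974, 0.287 and 0.971). In order of mean level, head at E11.5, trunk at E10.5 and trunk at E11.5 overlapped at the top, and trunk and head at E9.5 overlapped at the bottom, with head at E10.5 between them, overlapping trunk at E9.5.

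The probe sets of Nes did not move alike. A second one, above the median on 11 arrays, spanned 106.4 to 235.2 units and gave log2 0.59 over both days in head and 0.09 in trunk (adjusted p = 0.402 and 0.897, fitted with each probe set on its own). The third was dim on all 12 arrays, at 5.819 to 47.86 units. With the mean of the 2 measured probe sets the rises were log2 0.85 in head and 0.54 in trunk, and neither was called (adjusted p = 0.0719 and 0.178).

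The calls for Nes were close to the threshold. That for head over both days was lost under 13 of 25 alternatives, that for the first day in trunk under 15 and that for both days in trunk under 5. Without both E10.5 replicate 1 arrays the adjusted p was 0.0682, 0.188 and 0.0554. Without trunk E9.5 replicate 1 the trunk values were log2 0.64 and 0.62 (adjusted p = 0.397 and 0.276), and the value over both days was also lost without trunk E11.5 replicate 1 (log2 0.72, adjusted p = 0.222). The first day in trunk was lost as well without either array of head at E9.5, head at E11.5 or trunk at E10.5 (adjusted p from 0.0534 to 0.232), and the rise in head when any 1 of the 4 arrays compared or of the trunk E10.5 arrays was left out (adjusted p from 0.0552 to 0.135).

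Muscle determination genes rose alongside Nes. Of 9 tested genes of a myogenic list, 6 rose in head and 4 in trunk from E9.5 to E11.5, and none fell, with list medians of log2 2.09 and 1.43, against 0.00 and −0.01 over all genes, of which 4.78% and 13.4% were called. Their summed signal lay at 1836 to 2353 units in head at E9.5, 5227 to 5332 at E10.5 and 10390 to 10670 at E11.5. In trunk it lay at 2618 to 3216, then 3455 to 3953, then 5286 to 5437 units. Myod1, a determination factor that acts beside Myf5, had 2156 and 2337 units in head at E11.5, against 56.93 and 96.46 at E9.5, and in trunk 1198 and 879 units at E11.5, against 70.12 and 73.53 at E9.5. No tested gene of this list was listed at 0, and the share of the Nes signal that came from muscle cells was not tested.

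**Figure D3:**
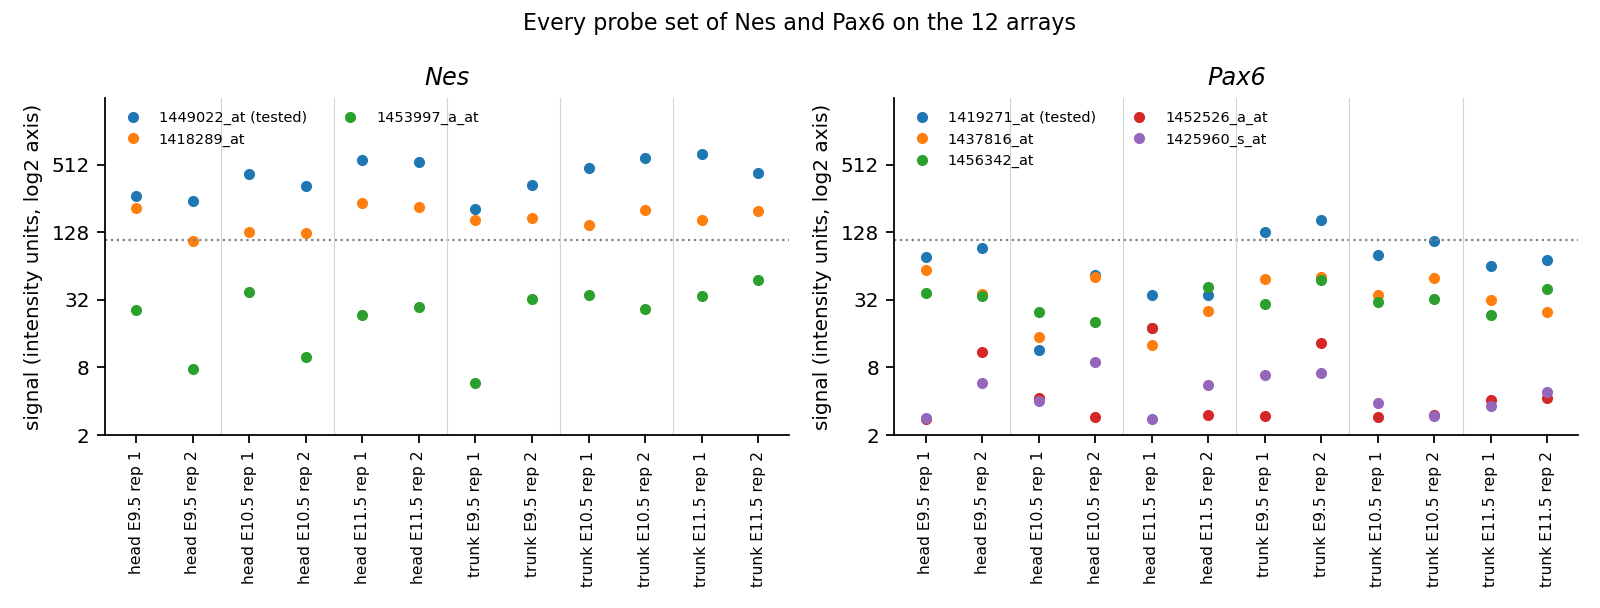
Signal (log2 axis, intensity units) of every probe set of Nes and Pax6 on the 12 arrays, with the array median dotted. The second probe set of Nes stays between 106.4 and 235.2 while the tested one spans 204.8 to 631.0, and 4 of the 5 probe sets of Pax6 stay below the median on every array.

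Pax6 was dim on most arrays. Its tested probe set had 76.95 and 93.40 units in head at E9.5, 11.47 and 53.03 at E10.5 and 35.11 and 35.12 at E11.5. In trunk it had 127.5 and 164.1 units at E9.5, 80.95 and 107.4 at E10.5 and 64.56 and 72.54 at E11.5. The trunk arrays at E9.5 alone exceeded the array median, so the gene entered the test only through the group in which it was highest.

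No difference between the regions is read from these signals, since the means of both were dim. The fit gave log2 −1.22 ± 0.35 for head minus trunk over the mean of the 3 stages (adjusted p = 0.0452, n = 6 arrays per region), and with signals raised to the median the value was log2 −0.13 (adjusted p = 0.3). At single stages the fit gave log2 −0.77, −1.92 and −0.96 (adjusted p = 0.619, 0.0892 and 0.631). No change with stage passed in head (log2 −1.27 over both days, adjusted p = 0.306) or in trunk (log2 −1.08, adjusted p = 0.286). The value over the mean of the stages was on the other side of the threshold under 14 of 23 alternatives: the adjusted p was between 0.0675 and 0.127 when any 1 of 10 arrays, all but those of head at E10.5, was left out. Without both E10.5 replicate 1 arrays it was log2 −0.92 (adjusted p = 0.071). The other 4 probe sets of Pax6 were dim on all 12 arrays, with highest signals of 59.19, 47.59, 17.90 and 9.007 units, and no order of levels is given for signals this dim.

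Counts over the 4 genes stand against the share of all 7722 genes called. Between head and trunk, limma called 1 of 4 over the mean of the stages (background 10.5%), which was Pax6 at dim signals, from which no difference is read, 1 at E9.5 (5.92%), 0 at E10.5 (4.52%) and 2 at E11.5 (2.07%). In head it called 0 over the first day (background 0.958%), 1 over the second (0.984%) and 2 over both (4.78%). In trunk it called 3 over the first day (7.2%), 0 over the second (0.0259%) and 3 over both (13.4%). For the difference between the regions' changes it called 1 over both days (1.48%), 0 over the first (0.389%) and 0 over the second (0%). Where 0 of the 4 were called, those with an unadjusted p under 0.05 are given here, with the number among all 7722 genes in brackets. They numbered 1 at E10.5 between regions (1850), 2 over the first day in head (1208) and 0 over the second day in trunk (601). For the differences over the first and second days they numbered 1 and 2 (916 and 785). With 4 genes such counts describe the genes and carry no test.

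Across the 12 arrays the 4 genes did not follow one another. Pearson r of log2 signal was −0.78 between Sox2 and Nes, 0.54 between Sox2 and Pax6, 0.48 between Fabp7 and Nes, −0.37 between Nes and Pax6, −0.19 between Fabp7 and Pax6 and −0.14 between Sox2 and Fabp7. These are descriptions over arrays that fall into 6 groups of 2, and those with Pax6 rest on signals that were dim on 10 of the 12.

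Other genes of neural progenitors were set beside these 4 in the same comparisons. Of 42 such genes written from textbook knowledge, 36 were on the array and 25 were tested. Beside Sox1 and Sox3, those that were dim on all 12 arrays were Sox21, Hes3, Olig2, Nkx6-1, Nkx6-2, Nkx2-2, Pou3f2, Pou3f3 and Pou3f4, which encode regional factors of the neural tube and POU factors. From E9.5 to E11.5 in head, 2 rose and 3 fell (4.78% of all genes called), with a list median of log2 −0.45, against 0.00 over all genes. In trunk 2 were called higher at E11.5, 1 of them at dim signals, and 1 fell, with a median of log2 −0.06, against −0.01, and these 3 of 25 are near the background of 13.4%.

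Hes5, a Notch target that keeps neural progenitors undifferentiated, was at least 7.92-fold lower in head at E11.5 than at E9.5 (adjusted p = 0.0157). It had 64.89 and 193.6 units in head at E11.5, against 1335 and 999.3 at E9.5, and in trunk 806.9 and 1386 units at E11.5, against 1755 and 1085 at E9.5. Lin28a, an RNA-binding protein of early embryonic cells, exceeded the median only at E9.5, and at E11.5 it had dim signals of 37.12 and 29.25 units in head and 27.61 and 19.98 in trunk. It was at least 3.52-fold lower in head at E11.5 than at E9.5 and at least 4.39-fold lower in trunk (adjusted p = 0.00451 and 0.000527). Otx2, a homeodomain factor of the forebrain and midbrain, had 13.83 and 3.624 units in head at E11.5, against 323.7 and 467.6 at E9.5, at least 3.55-fold lower (adjusted p = 0.0203). It exceeded the median in head at E9.5 alone, so it entered the test only through the group in which it was high. Vim, the filament protein vimentin of progenitors and mesenchyme alike, rose in both (log2 0.47 in head and 1.09 in trunk, adjusted p = 0.0368 and 0.000127). Ncam1, a neural cell adhesion molecule that young muscle also makes, rose in head (log2 1.71, adjusted p = 0.000375), and Lhx2, a LIM-homeodomain factor, was the other called in trunk (adjusted p = 0.0175), at signals that were dim on all 6 trunk arrays, so no rise is read from it. The count of genes that fell in head was 1 without head E9.5 replicate 1, and of the 2 counts of genes that rose, that in head was 1 when any 1 of 9 arrays was left out, all but head E9.5 replicate 2 and those of trunk at E9.5, and that in trunk was 1 when any 1 of the 4 arrays compared was left out. Without both E10.5 replicate 1 arrays 1 gene rose in head, and without trunk E11.5 replicate 2, 2 fell in trunk.

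At E11.5, where Sox2 and Fabp7 were lower in head, 4 of the 25 other genes were lower there and none was higher (2.07% of all genes called), with a median of log2 −0.23, against 0.02 over all genes. Slc1a3, the glutamate transporter of radial glia, had 145.4 and 149.7 units in head, against 574.7 and 408.4 in trunk (log2 −1.72 ± 0.31, adjusted p = 0.0135). Zic1, a zinc-finger factor of dorsal neural tube and somite, had 281.9 and 480.9 units in head, against 4803 and 4634 in trunk (log2 −3.68 ± 0.43, adjusted p = 0.00131). Hes5, with 1 of the head arrays dim, was at least 7.25-fold lower (adjusted p = 0.0363), and Ccnd2, a cyclin of dividing progenitors, was lower by log2 −0.76 ± 0.12 (adjusted p = 0.00687). The arrays of Zic1, Slc1a3 and Ccnd2 were lower in head at E9.5 and E10.5 too, without overlap, so this was not particular to E11.5. Those of Hes5 overlapped at both earlier stages. Over the mean of the stages, 7 of the 25 were lower in head and 5 higher (10.5% of all genes called). The 5 include Lhx2 and Otx2, dim on most arrays. The count of 4 was 2 without head E11.5 replicate 1 and 1 without trunk E11.5 replicate 1.

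At E9.5, where Fabp7 was higher in head, 5 of the 25 were higher in head and 2 lower (5.92% of all genes called), while the list's median was log2 −0.11, against −0.01. The 5 include Otx2, which entered the test only through head at E9.5, and Lhx2, which exceeded the median on head arrays alone. The count of 2 was 1 without head E9.5 replicate 1 or trunk E9.5 replicate 2. Lhx2 had 389 and 550.4 units in head, against dim signals of 3.069 and 2.977 in trunk, and was at least 4.23-fold higher in head (adjusted p = 5.99e-05). Irx3 and Irx5, Iroquois factors, were higher by log2 1.496 and 1.41 (adjusted p = 0.00349 and 0.00213). Ncam1 was lower in head by −1.67 ± 0.18 (adjusted p = 0.000188). The summed signal of the 25 genes lay at 40970 to 42260 units in head at E9.5, 42430 to 42630 at E10.5 and 36350 to 37750 at E11.5, and in trunk at 43230 to 43750, then 48220 to 50610, then 48810 to 50030. Most of the sum in head at E9.5 came from 4 bright genes. Hmga2 had 10450 and 9373 units there, Ccnd2 4878 and 5122, Prom1 4909 and 4561, and Vim 4084 and 4984.

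**Figure D4:**
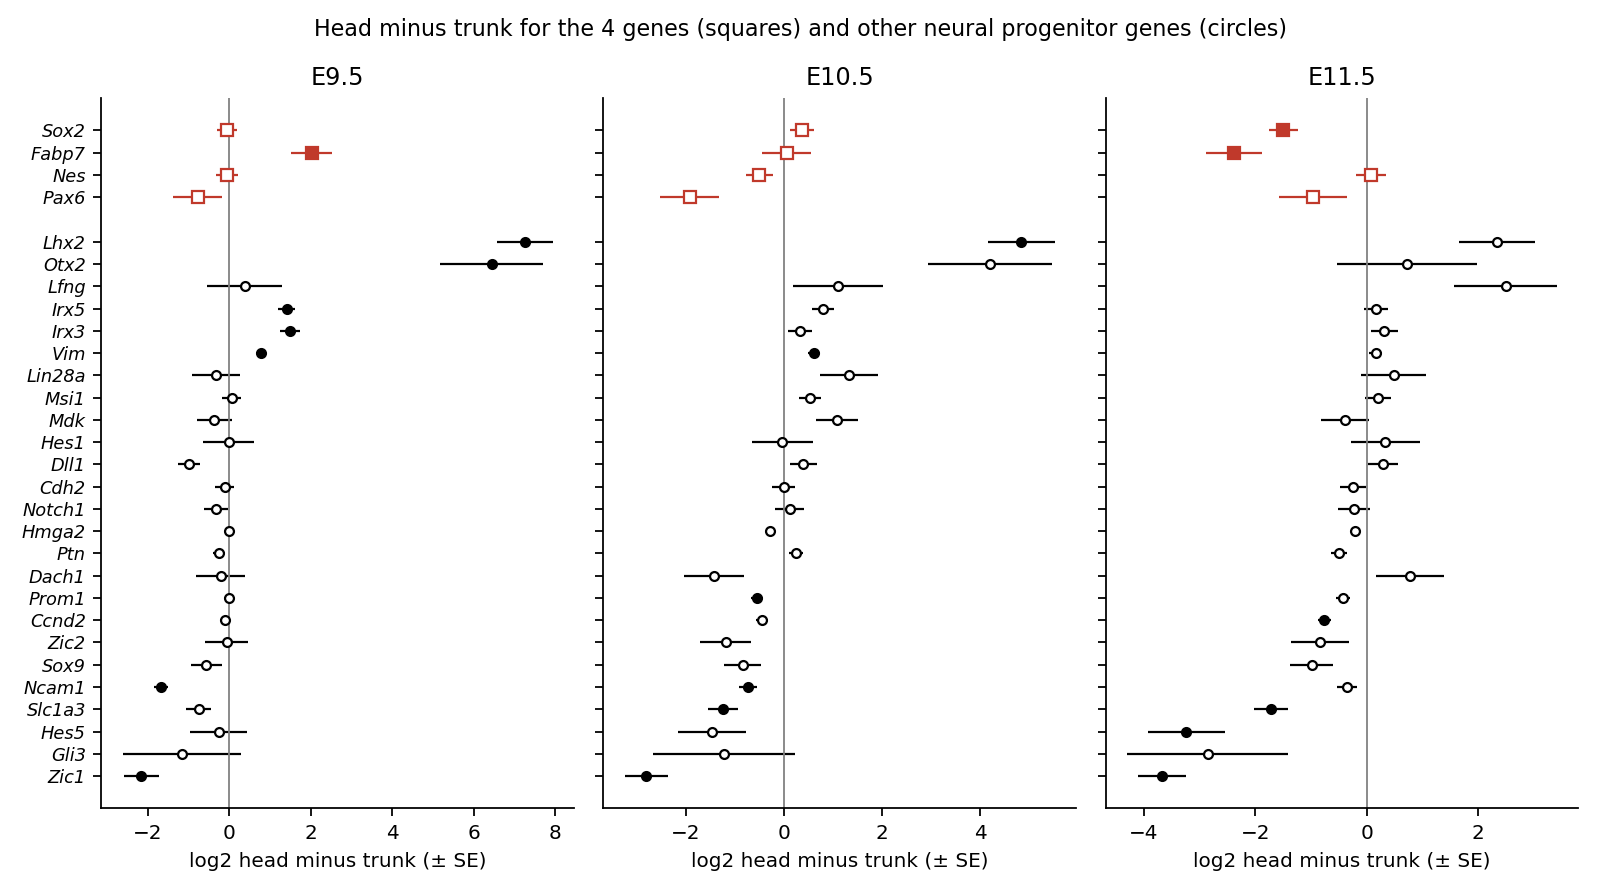
Log2 head minus trunk with its standard error from limma at each stage, for Sox2, Fabp7, Nes and Pax6 (squares) and the 25 other tested neural progenitor genes (circles); filled symbols passed an adjusted p of 0.05, and points that rest on dim signals, such as Lhx2 in trunk, are not measured sizes. At E11.5 the called genes, Zic1, Hes5, Fabp7, Slc1a3, Sox2 and Ccnd2, all lie below 0.

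Neurogenic basic helix-loop-helix factors commit neural progenitors to become neurons. Of 4 such genes tested, Neurog1 and Neurod1 fell in head over both days (4.78% of all genes called). Neurog1 had dim signals of 24.58 and 20.17 units in head at E11.5, against 328.3 and 391.3 at E9.5, at least 3.27-fold lower (adjusted p = 0.0105). In trunk at E9.5 it was dim as well, at 8.217 and 65.15 units. Neurod1 fell by 1.98 on the log2 scale in head (adjusted p = 0.00213) and in trunk, where 1 array at E9.5 was dim, was at least 2.12-fold higher at E11.5 (adjusted p = 0.00857). The list's summed signal was 570.4 to 953.0 units in head at E11.5, against 2844 to 3444 at E9.5, and 669.4 to 671.0 units in trunk at E11.5, against 495.4 to 692.1 at E9.5. Of the placode, lens and olfactory genes only 3 were tested. Over both days 1 rose in each region, Pitx3 in head and Cryab in trunk, beside 4.78% of all genes called in head and 13.4% in trunk. Of 11 tested endothelial genes none was called over both days in either region. All 11 were higher in head over the mean of the stages (10.5% of all genes called), 7 at E9.5 (5.92%), 7 at E10.5 (4.52%) and 3 at E11.5 (2.07%), with list medians of log2 1.49, 1.73, 1.65 and 1.12. Of the 11 genes, 1 exceeded the median in head at E10.5 alone, so it entered the test only through a group in which it was high. Some of the others had dim arrays in both regions. The E9.5 count was 3 without head E9.5 replicate 2 and 4 without trunk E9.5 replicate 1. The E10.5 count was 1 to 4 when any 1 of the 4 E10.5 arrays was left out and 0 without both E10.5 replicate 1 arrays. The E11.5 count was 0 or 1 when any 1 of 10 arrays, all but those of head at E9.5, was left out.

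**Figure D5:**
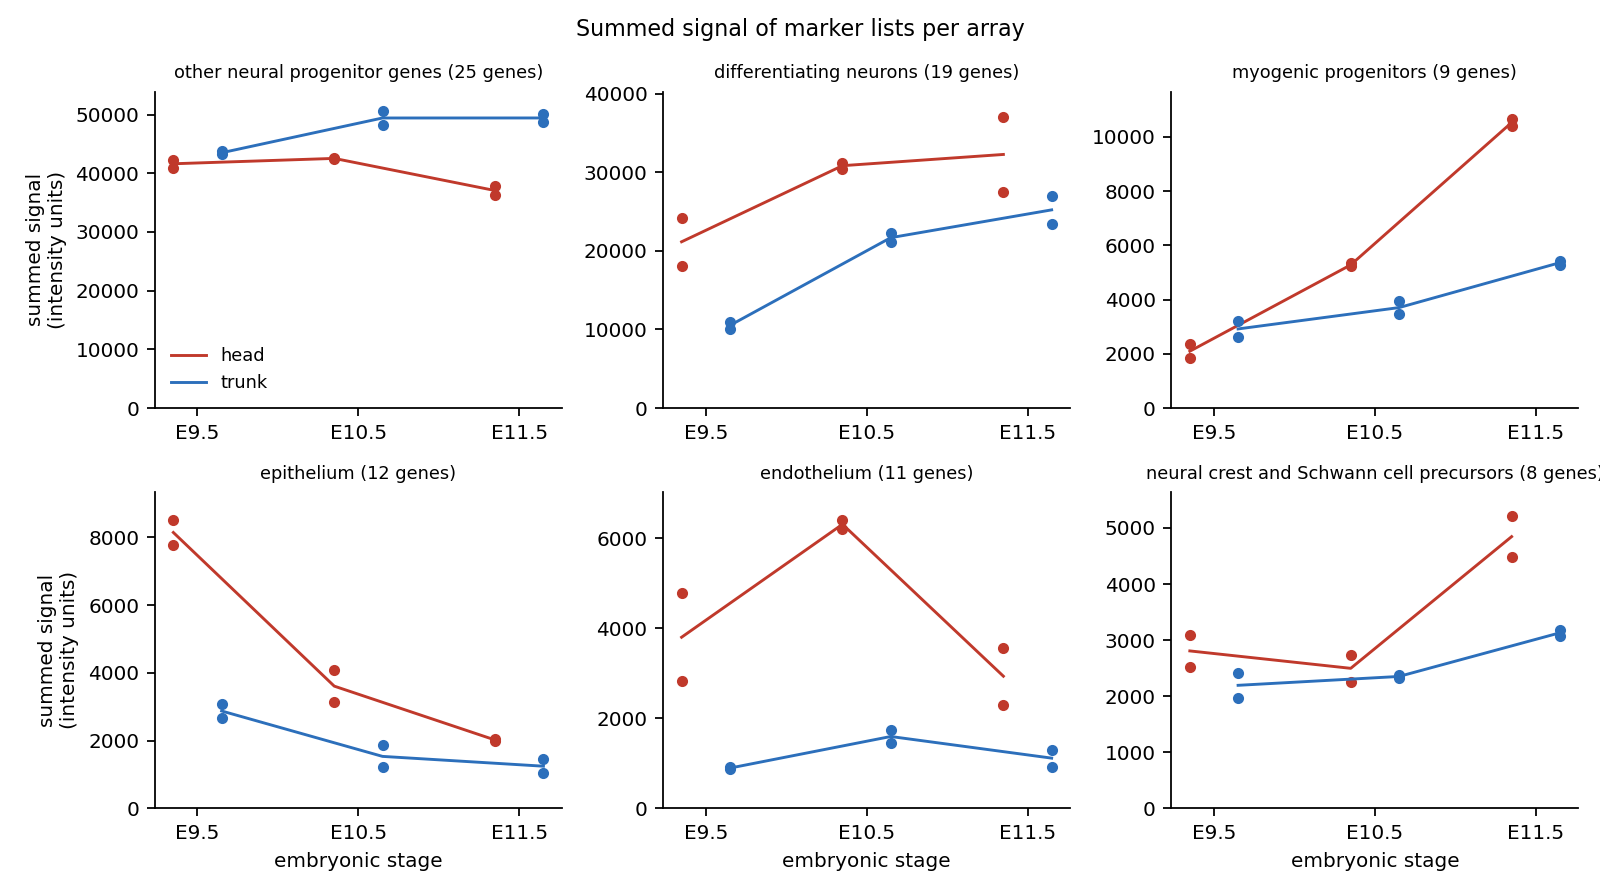
Summed signal (intensity units, linear axis from 0) of the tested genes of 6 marker lists on every array (points), by stage, head left of trunk within a stage; lines join the group means. The neuronal sum in trunk at E9.5 is the lowest of that panel, at 10060 and 10960 units, and the epithelial sum falls with stage in both regions while the myogenic sum rises. Sums are led by a list's brightest genes, such as Sox4 for the neuronal list and Hmga2 for the progenitor list.

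The genes whose log2 signal was most like that of each of the 4 over the 12 arrays were found among all 7722 tested. For Sox2 they were Rnf128 (r = 0.97), Slc9a3r1 (0.93), Gcnt2 (0.91), Slain1 (0.90) and Cop1 (0.90). For Fabp7 they were Rnd2 (0.91), Sdcbp (0.91), Gpm6b (0.90), Gpx8 (0.89) and Igf1 (0.89). For Nes they were Car3 (0.94), Ccl27a (0.94), Myh3 (0.93), Tmem191c (0.92) and Hrc (0.92), where Myh3 encodes the embryonic myosin heavy chain and Hrc a calcium-binding protein of the sarcoplasmic reticulum. For Pax6 they were Alg5 (0.95), Cd320 (0.93), Ddx49 (0.93), Tfap2b (0.92) and Ints13 (0.92). None of these 20 genes was on the list of neural progenitor genes. That list holds only 25 of the 7722 genes tested, so nothing is read from this count. Tfap2b was on the list of neural crest and Schwann cell precursors. Each r is a description over 12 arrays in 6 groups, picked as the highest of many. Those for Pax6 follow signals that were mostly dim.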

How the data were processed

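Per the labels' protocols, fluorescent cells were sorted from dispersed tissue, RNA was isolated with QIAzol and amplified (MessageAmp), and the labelled cRNA went onto 1 array per sample. The values are linear probe set signals with intensity as their unit, as deposited by the authors, from MAS5 and Affymetrix Expression Console per the submitters' processing notes, which give no versions. The sources used here do not state any normalization after MAS5. The 10th to 99th percentiles differed between arrays by at most 0.0353 on the log2 scale, so none was added. Of 22690 probe sets, 64 controls were left out, 691 stood for several genes and 1555 for none. GEO's platform annotation named the rest, and 20351 of these 20380 were matched by Entrez identifier to the GRCm38.p6 gene table, with 0 symbols changed.

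The signals of the deposited table were turned into log2 and tested with limma 3.58.1 in R 4.3.3. The model had 1 mean for each of the 6 groups and moderated variances that follow an intensity trend, with 6 residual and 5.87 prior degrees of freedom. Tests were two-sided, p-values were adjusted by Benjamini-Hochberg over the 7722 genes, and the threshold was 0.05, in 13 comparisons. Probe sets entered the test when 2 or more of the 12 arrays exceeded their own median, and the one of highest mean stood for its gene. An "at least" fold raises dim arrays of the lower side to their median. The number of arrays limits the precision, and the fit was tested on simulated data.

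The 4 genes and the lists were chosen with earlier results of these data known. Named genes are the 4 genes with every probe set, the members of smallest p in each list (at most 5 per comparison described), the 5 genes of highest r with each of the 4, Myf5, and list members that were not tested. A few list members that lead a summed signal or were dim were named after their values were seen. Alternatives covered normalization, the log scale, the filter, a floor, the probe set, the variance model, a replicate block, single arrays left out and the samples fitted.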

Additional observations from a re-analysis of the deposited data

Results flagged for a closer look

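The change of Fabp7 from E9.5 to E11.5 differed between head and trunk by log2 −4.405 ± 0.707 (limma, adjusted p = 0.00899, the head change minus the trunk change). In head the change was log2 −0.76, which did not pass the test, and in trunk both arrays at E11.5 exceeded both at E9.5 (log2 3.64). The difference was found by the test of the difference itself and ranged from log2 −5.11 to −3.70 over the alternatives. The groups hold 2 arrays each, too few to look for single arrays that lie apart.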

How the results depend on the processing

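Each of the 13 comparisons was repeated under up to 25 alternatives. Across genes, lists and counts, 1875 values kept their side of the threshold or, as counts, stayed within 1.5 times. Beyond these, 173 counts moved further, 81 calls were lost and 3 were gained. No value called in either fit changed direction, but values called in neither could change sign. Sox2 between regions at E9.5, for example, ranged from log2 −0.36 to 0.25. The limits are those of 2 arrays per group and of signal over background: calls near the threshold were lost with 1 array, and Pax6, dim on 10 of 12 arrays, was not tested when 4 arrays had to exceed the median. Fitting only the groups compared equals the fit as reported for the mean of the 3 stages. The causes of the differences below were not tested, except that leaving out arrays leaves fewer samples.

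The replicate numbers are shared by the groups. Deviations from the group means correlated between same-numbered arrays at −0.30 to 0.17 over 15 pairs of groups, with 2 above 0.1. This check cannot exclude that same-numbered arrays share embryos or litters. Head and trunk at E10.5, whose replicate 1 arrays both had low Xist, correlated at −0.001. With the replicate block the rise of Nes was log2 1.12 in head over both days (adjusted p = 0.0513) and 1.004 in trunk over the first day (adjusted p = 0.0622), and the count for the second day in head was 49. The block changed no other call of the 4 genes.

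Without both E10.5 replicate 1 arrays, the counts of called genes were 446 for head against trunk averaged over the stages and 34 at E10.5. In head they were 0 over the first day and 4 over the second, in trunk 95 and 0, and for the difference between changes 63 over both days and 0 over the first. Sox2 gave log2 −1.65 for the second day in head and −0.93 for the first day in trunk, Nes 1.12 for both days in head, 1.14 for the first day in trunk and 0.99 for both, and Pax6 −0.92 between regions over the mean, all no longer called.

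With only the groups compared, the counts were 679 and 84 between regions at E10.5 and E11.5. In head they were 41, 48 and 213 over the first, second and both days, in trunk 4 over the second, and for the difference over both days 63. Nes was no longer called at log2 1.12 in head over both days, 1.004 in trunk over the first day and 0.99 over both. Without the intensity trend the counts were 192 between regions at E10.5, 34 for the first day in head and 17 for the difference over the first day, and calls were lost for Sox2 in trunk over both days (log2 −0.89), Fabp7 between regions at E9.5 and E11.5 (2.03 and −2.38) and Nes in head over both days (1.12) and in trunk over the first (1.004).

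With the floor at the median the counts were 116 and 132 for the first and second day in head, 13 for the second in trunk and 2 for the difference over the second day. Calls were lost there for Sox2 in trunk over both days (log2 −0.89), Fabp7 at E9.5 between regions (1.57), Nes in head over both days (1.12) and in trunk over the first (1.004), and Pax6 over the mean (−0.13). With no filter the counts were 49 and 50 for the first and second day in head, and Sox2 in trunk over both days (−0.89), Nes in head over both days (1.12) and in trunk over the first (1.004), and Pax6 over the mean (−1.22) were no longer called. With log2(signal + 32) the counts were 119 for the first day in head and 13 for the second in trunk. With the mean over probe sets 47 genes were called for the first day in head, and Nes gave 0.85 in head and 0.54 in trunk over both days and 0.52 in trunk over the first, none called. With each probe set tested, 1 was called for the second day in trunk and 17 for the difference over the first day, and Fabp7 at E11.5 between regions (−2.38), Nes in trunk over the first day (1.004) and Pax6 over the mean (−1.22) were no longer called. Without the suffixes _s, _x and _a, 224 genes were called between regions at E10.5.

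With 1 array left out in turn, the counts ranged between regions from 534 to 912 over the mean, 238 to 452 at E9.5, 64 to 484 at E10.5 and 56 to 171 at E11.5. In head they ranged from 2 to 135, 6 to 165 and 173 to 395 over the first, second and both days, and in trunk from 105 to 578, 0 to 4 and 434 to 1078. For the difference between changes they ranged from 57 to 120 over both days, 7 to 88 over the first and 0 to 17 over the second. Sox2 ranged from log2 −1.52 to −1.47 between regions at E11.5, −1.65 to −1.47 for the second day in head, and −1.47 to −0.93 and −1.07 to −0.71 for the first and both days in trunk. Fabp7 ranged from 1.32 to 2.73 at E9.5 and −2.62 to −2.14 at E11.5 between regions, and 2.36 to 3.77 and 2.94 to 4.35 for the first and both days in trunk. Nes ranged from 1.03 to 1.198 in head over both days, and 0.64 to 1.37 and 0.62 to 1.35 in trunk over the first and both days. Pax6 ranged from −1.59 to −0.85 over the mean.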
